A study of Mus musculus with 12 samples.

Results

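The Wnt ligand genes described here are Wnt2, Wnt2b, Wnt3, Wnt4, Wnt5a, Wnt5b, Wnt6, Wnt9b, Wnt10a and Wnt11. They are 10 of the 19 Wnt genes, were taken by gene name with earlier results of these data known, and all 10 were found among the 54532 genes of both expression tables. RNA-seq was made from 12 libraries in 4 groups of 3. Crypts of the small intestine came from mice labelled Wild type and from mice labelled ieCtnnb1KO, which lack ieCtnnb1, an enhancer upstream of Ctnnb1 that is active in intestinal epithelium. Colon tumors came from mice labelled APCmin/+ and from mice labelled APCmin/+;ieCtnnb1KO. All tumor mice therefore carried the Min mutation of Apc, and the tumor control was not a wild-type tissue. All 12 samples were labelled adult with no treatment, and the mice had a C57BL/6 background. The enhancer deletion was made in the germline, so every cell of a knockout animal carried it. Crypts were released from the tissue with EDTA and strained, while the tumors were whole tissue with stroma. The knockout groups were compared with their controls to ask which genes depend on the enhancer in each tissue.

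Wnt ligands are secreted, lipid-modified glycoproteins. The acyltransferase Porcn attaches the lipid, the carrier Wls brings the ligand to the cell surface, and Frizzled receptors with the co-receptors Lrp5 and Lrp6 receive it. Canonical signaling stabilizes beta-catenin, the product of Ctnnb1, which joins TCF/LEF factors in the nucleus. In the small intestine Paneth cells make Wnt3, and mesenchymal cells around the crypt make other ligands such as Wnt2b and Wnt5a. Wnt5a, Wnt5b and Wnt11 are best known for signaling that does not pass through beta-catenin. Loss of Apc function stabilizes beta-catenin downstream of the ligands.

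Sequences upstream of the genes are shown for Wnt3 and Wnt6, the ligands with the highest mean level in crypts and in tumors. They come from a table of promoters made from RefSeq on build GRCm38.p6, in which 8 of the 10 genes have an entry, with 11 start sites in all. The promoters of Wnt5a and Wnt10a are not in that table and were not searched. The motif CTTTGAT, a core recognized by TCF/LEF factors, was searched on both strands (ATCAAAG on the other) in the 250 bases before each start. It was found at 2 of the 11 starts and in 3.21% of the 32851 promoters of the table. Neither Wnt3 nor Wnt6 had a match, which says only that these letters are not in the window. The Wnt3 stretch lies on the plus strand at chr11:103773925-103774149, up to the annotated start of the gene, and the Wnt6 stretch on the plus strand at chr1:74771642-74771891. The windows with a match belonged to 1 start of Wnt11 and 1 start of Wnt5b. The 29 bases around the Wnt11 match span chr7:98835050-98835078, before the first base of the gene, and are written for the plus strand, so that ATCAAAG appears and CTTTGAT reads on the minus strand. Those around the Wnt5b match span chr6:119449440-119449468, inside the gene and before an internal start site, and are written for the minus strand, on which CTTTGAT reads. Capitals mark the match in these last 2 sequences, and each match is a description of letters, not of binding.
Wnt3: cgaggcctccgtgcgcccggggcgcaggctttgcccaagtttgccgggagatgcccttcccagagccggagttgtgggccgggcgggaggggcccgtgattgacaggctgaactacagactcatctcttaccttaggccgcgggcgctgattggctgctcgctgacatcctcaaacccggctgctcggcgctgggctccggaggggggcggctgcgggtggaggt
Wnt6: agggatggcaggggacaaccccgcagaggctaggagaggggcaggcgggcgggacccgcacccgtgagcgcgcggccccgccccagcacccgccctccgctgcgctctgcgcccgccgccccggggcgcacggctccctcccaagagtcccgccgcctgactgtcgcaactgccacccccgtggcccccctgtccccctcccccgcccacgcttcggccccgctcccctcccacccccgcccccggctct
Wnt11: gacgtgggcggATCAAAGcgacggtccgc
Wnt5b: agtaagtctctCTTTGATctgctccctgt

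Wnt6 and Wnt10a are neighbours on chromosome 1 of GRCm38 (chr1:74771892-74785322 and chr1:74791516-74804179), both on the plus strand, with 6193 bases and 0 annotated genes between them. Wnt9b and Wnt3 are neighbours on chromosome 11 (chr11:103727364-103749821 on the minus strand and chr11:103774150-103817957 on the plus strand), with 24328 bases between them. Of the ligands, 2 overlap an expressed gene on the opposite strand, and the counting is not stated to use strand. Wnt6 overlaps the antisense gene Gm29539, listed at 0 to 0.0852 FPKM in crypts and 1.52 to 6.53 in tumors, and Wnt5b spans Fbxl14, at 14.9 to 26.9 FPKM over both tables. Reads of such partners cannot be told apart where their exons overlap.

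Levels are given as FPKM, fragments scaled by gene length and by a factor for each library, so they can be compared between genes. Each table was normalized on its own, and levels were not compared between crypts and tumors. Between 14457896 and 16156712 fragments per library were recovered from the FPKM and gene lengths. The scaling factor did not follow these totals in every library. In Wild type crypt replicate 1, with 14457896 fragments, 1 fragment per kb amounted to 0.0646 FPKM. In knockout crypt replicate 3, with 14685020 fragments, it amounted to 0.0712 FPKM. A group mean of at least 1 FPKM is called expressed, from 0.1 to 1 low, and under 0.1 near 0. Differences between genotypes were tested within a tissue with limma on log2(FPKM + 0.5), over all genes with a mean of at least 0.5 FPKM, with a Benjamini-Hochberg adjusted p under 0.05 as the threshold. Log2 differences are on that scale, which understates the change of low genes. For single genes an exact two-sided permutation test of the mean FPKM was added, whose smallest possible p for 3 against 3 libraries is 0.1. Spread is given as SD over 3 libraries.

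Ctnnb1 was lower in the knockout libraries of both tissues. Its FPKM were 121, 134 and 123 in Wild type crypts and 102, 104 and 105 in ieCtnnb1KO crypts, so the groups did not overlap. In tumors Ctnnb1 stood at 299, 364 and 358 FPKM in APCmin/+ and at 279, 248 and 250 in the knockout, again without overlap. The knockout mean was 0.824 times the control mean in crypts (limma log2 difference -0.28, SE 0.12, adjusted p = 0.849) and 0.763 times in tumors (-0.39, SE 0.13, adjusted p = 0.303). All 6 knockout libraries thus matched the direction of their label, although Ctnnb1 did not pass the threshold in either tissue.

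Some libraries stood apart from their group. Wild type crypt replicates 1 and 2 contained more stomach transcripts than the other crypt libraries. Tff2, a gastric mucous peptide, was at 122 and 53.6 FPKM in these libraries against 1.09 in Wild type replicate 3 and 0.105, 3.37 and 0.122 in the knockout. Gkn1 was at 7.08 and 8.27 FPKM there and listed at 0 in the other 4. Gkn3 was at 42.9 and 29.3 FPKM there, 11.5 in Wild type replicate 3 and 9.76, 13.5 and 7.90 in the knockout. The 8 stomach markers summed to 206, 122 and 14.9 FPKM in Wild type crypts and 11.8, 19.2 and 9.86 in knockout crypts. All 6 tested markers were lower in the knockout, but Gkn1, Gkn2 and Muc6 passed the filter only through Wild type replicates 1 and 2. Wild type replicate 3 had the highest Fabp6 and Defa24 of the crypts. Fabp6 was at 2619 FPKM there, 135 and 991 in the other Wild type libraries and 617 to 678 in the knockout. Defa24 was at 32840 FPKM there and 7359 to 10160 elsewhere. Among the tumors, replicate 3 of each genotype expressed the female transcript Xist (114 and 61.4 FPKM) and had the Y-linked gene Ddx3y at 0 and 0.0247 FPKM. The other 4 tumor libraries had Xist at most at 0.0623 FPKM and Ddx3y at 8.65 to 12.9 FPKM. All crypt libraries had the male pattern, with Ddx3y at 8.32 to 9.86 FPKM.

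Tissue markers were compared with the labels. Epithelial markers were high in both tissues, with Krt8 at 1405 to 1917 FPKM in crypts and 1280 to 1796 in tumors. The small-intestinal factor Gata4 was at 20.4 to 37.5 FPKM in crypts and at most at 0.0931 in tumors. The colon gene Hoxb13 was at 70.1 to 128 FPKM in tumors and listed at 0 in all crypt libraries. In crypts Col1a1 was at 0.122 to 0.482 FPKM and the pericryptal markers Foxl1 and Gli1 were under 0.1 in every library, while the fibroblast genes Dcn, at 1.13 to 3.98 FPKM, and Thy1, at 1.14 to 2.51, were expressed. In tumors Col1a1 was at 68.5 to 151 FPKM.

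In crypts, Wnt3 was the 1 ligand called expressed, in both genotypes. It took 70.1%, 76.3% and 74.1% of the summed FPKM of the 10 ligands in Wild type replicates 1, 2 and 3, against 68.2%, 65.9% and 71.3% in the knockout. In Wild type crypts 7 ligands were low and 2 were near 0, and in ieCtnnb1KO crypts 6 were low and 3 near 0. The order in Wild type crypts was Wnt3 (6.04 ± 0.795 FPKM), Wnt6 (0.617 ± 0.228), Wnt2b (0.450 ± 0.0971), Wnt5a (0.300), Wnt11 (0.225), Wnt5b (0.219), Wnt4 (0.180), Wnt9b (0.152), Wnt10a (0.0173) and Wnt2 (0). Of the 9 pairs of neighbours in that order, 3 had library ranges that did not overlap. These were Wnt3 above Wnt6, Wnt2b above Wnt5a and Wnt9b above Wnt10a. The order of the other neighbours lay within the spread of the libraries.

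In ieCtnnb1KO crypts the order began with Wnt3 (4.12 ± 0.134 FPKM), Wnt6 (0.917 ± 0.0837) and Wnt5a (0.212 ± 0.0490), each separated from the ligand below it except Wnt5a from Wnt2b. Wnt2, a ligand of mesenchymal cells, was listed at 0 FPKM in all 6 crypt libraries, where 3 fragments would amount to 0.0794 to 0.0947 FPKM. A count of 0 has 3 fragments as its approximate 95% limit from counting error alone. Wnt10a had 1, 0 and 1 fragments in Wild type crypts and 0, 0 and 5 in the knockout, too few for a fold change.

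**Figure D1:**
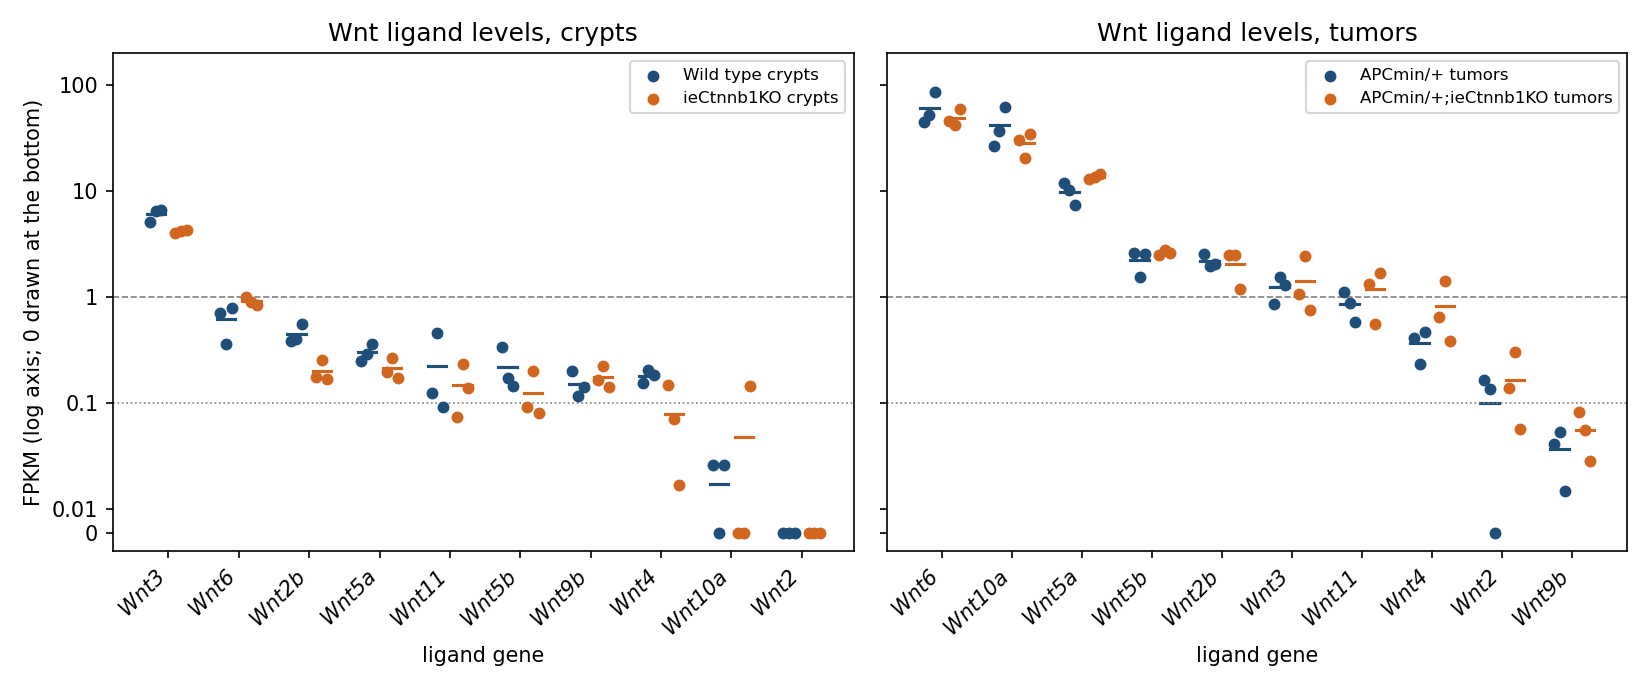
FPKM of each ligand in every library on a log axis, crypts on the left and tumors on the right, with a point per library and a bar for the group mean. The dashed line marks 1 FPKM and the dotted line 0.1 FPKM. Wnt3 alone lies above the dashed line in every crypt library, and Wnt6 and Wnt10a lead in the tumors at 20.4 to 86.1 FPKM.

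Wnt3 was lower in the knockout crypts. The Wild type replicates had 5.12, 6.44 and 6.55 FPKM of Wnt3 against 3.97, 4.15 and 4.24 in ieCtnnb1KO crypts, from 183 to 316 fragments per library. All 3 knockout libraries lay below every Wild type library, and the knockout group was the tighter of the pair. The knockout mean was 0.682 times the Wild type mean, a log2 difference of -0.49 (SE 0.13, 95% interval -0.80 to -0.18), which limma did not pass after adjustment over 14176 genes (adjusted p = 0.757, exact permutation p = 0.1). Without the 2 Wild type libraries that carried more stomach transcripts the log2 difference was -0.61. That leaves 1 Wild type library, replicate 3, which has the highest Wnt3. Without replicate 3 instead, the difference was -0.44.

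Wnt6, a ligand of epithelial cells in several tissues, was the other ligand above the filter and went the opposite way. Its level was 0.707, 0.358 and 0.786 FPKM in Wild type crypts and 1.01, 0.899 and 0.844 in knockout crypts, from 12 to 36 fragments. The groups did not overlap, but the gap between the highest Wild type and the lowest knockout library was small. The log2 difference was 0.36 (SE 0.23, 95% interval -0.17 to 0.90, limma adjusted p = 0.893, exact permutation p = 0.1). It was 0.14 without Wild type replicates 1 and 2, which leaves 1 Wild type library. Without replicate 2 alone, the Wild type library with the lowest Wnt6, it was 0.18. With a pseudocount of 0.1 it was 0.56, and with voom 0.63. As a share of the summed ligands, Wnt6 held 9.68%, 4.24% and 8.88% in Wild type crypts and 17.3%, 14.3% and 14.2% in the knockout.

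Of the 6 low ligands with at least 5 fragments on average, Wnt2b and Wnt4 were lower in the knockout without overlap of the groups. Wnt2b was at 0.384, 0.405 and 0.562 FPKM in Wild type crypts and at 0.175, 0.256 and 0.170 in the knockout, which is 88 fragments in all against 40 (log2 difference -0.44, exact permutation p = 0.1). Wnt4, an epithelial and mesenchymal ligand, was at 0.154, 0.203 and 0.182 FPKM against 0.146, 0.0712 and 0.0170, or 35 fragments against 16 (-0.24, exact permutation p = 0.1). The separation of Wnt4 is narrow, since replicate 1 of both genotypes had 10 fragments and differed only through the scaling factor of the library. Wnt5a had 109 fragments in Wild type and 79 in knockout crypts (-0.17), Wnt5b 27 and 16 (-0.20), Wnt11 43 and 29 (-0.14) and Wnt9b 32 and 38 (0.05). The groups of these last 4 overlapped. Wild type replicate 2 held 29 of the 43 Wnt11 fragments, and without it the Wnt11 difference was 0.08. Wild type replicate 1 held 14 of the 27 Wnt5b fragments, and without it the Wnt5b difference was -0.08. The Wnt9b difference was 0.00 without knockout replicate 2 and 0.01 without Wild type replicate 2.

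Counted over the 8 ligands with at least 5 fragments on average, 6 were lower and 2 higher in knockout crypts, with a median log2 difference of -0.18. Without Wild type replicate 2 the count was 5 lower and 3 higher, through Wnt11. Over all 16416 genes with that many fragments, 49.9% were lower and the median was 0.00. The groups did not overlap for 4 of the 8 ligands, against 12.1% of those genes. A limma p under 0.05 before adjustment was reached by 1 of the 2 ligands tested, Wnt3, against 829 of 14176 genes (5.85%). After adjustment 0 of 14176 genes (0%) passed, so no ligand did, and voom on the recovered fragments also called 0.

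All 10 listed Paneth cell markers were tested in crypts and had a lower mean log2 level in the knockout, with a median log2 difference of -0.56, but their summed level overlapped between genotypes. None passed the limma threshold, and of all 14176 genes tested 6698 were lower in knockout crypts. The size of that median leans on Wild type replicate 3. Defa30 was at 11290 FPKM there against 3898 and 5909 in the other Wild type libraries, and Itln1 at 4039 against 2118 and 3092. Ang4 was at 1155, 1754 and 2031 FPKM in Wild type and 1310, 920.5 and 3014 in knockout crypts. Of the 10, 3 had groups that did not overlap (Lyz1, Mmp7 and Mptx2), against 12.1% of 16416 genes. Mmp7, the protease that activates Paneth cell defensins, was at 329, 426 and 484 FPKM in Wild type crypts and at 228, 239 and 275 in the knockout. Lyz1, the lysozyme of Paneth granules, was at 7348, 10820 and 11470 FPKM against 7061, 6169 and 6500. The most abundant gene of the list, the defensin Defa24, was at 7359, 10160 and 32840 against 9438, 7629 and 8045, so its groups overlapped. The summed level of the list was 27130, 40020 and 71940 FPKM in Wild type and 29300, 26380 and 28940 in knockout crypts. In bulk RNA, fewer Paneth cells and less RNA per Paneth cell cannot be told apart, and the part of Paneth cells in the Wnt3 difference was not tested.

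RNA of stromal and immune cells was present in the crypt libraries. The 10 fibroblast genes summed to 8.23, 6.18 and 7.86 FPKM in Wild type and 3.91, 6.83 and 4.06 in knockout crypts. Of these genes 3 passed the filter, all 3 with a lower mean in the knockout. Col3a1, at 0.737, 0.766 and 0.734 against 0.369, 0.474 and 0.239 FPKM, passed it only through its Wild type level. The count of 3 is therefore not read as a result. Of the 7 fibroblast genes with at least 5 fragments on average, 1 had groups that did not overlap, against 12.1% of 16416 genes. Dcn, the most abundant of the list, was at 3.98, 2.23 and 3.72 FPKM against 1.13, 3.60 and 1.79. Endothelial genes summed to 2.73, 2.56 and 2.63 FPKM in Wild type and 2.32, 2.04 and 2.41 in knockout crypts, led by Esam, with 2 of 2 tested genes lower and with Cdh5, Kdr and Emcn under 0.1 in every library. Smooth muscle genes summed to 9.78, 8.81 and 9.55 FPKM in Wild type and 12.3, 9.33 and 10.7 in knockout crypts. Most of it was Mylk, the 1 tested gene, with a higher mean in the knockout, while Myh11, Actg2, Cnn1 and Synpo2 were under 0.1. Immune genes summed to 34.3, 33.2 and 36.5 FPKM against 29.7, 35.6 and 25.8, led by Lyz2 and Cd79a, with 5 of 7 tested genes lower (median log2 difference -0.25) and S100a8 listed at 0. Epithelial markers split evenly, with 4 of 8 lower and 4 higher and sums of 4312 to 5660 FPKM. So did the 8 small-intestinal markers, which include Lyz1 and Defa24 (sums of 15410, 22530 and 48360 against 18400, 15180 and 16450 FPKM). The part of fibroblasts, endothelial or immune cells in the Wnt2b and Wnt4 differences was not tested. Of the colon list 3 genes were tested in crypts, 1 lower and 2 higher, with sums of 258 to 440 FPKM led by Muc2 and with Hoxb13, Prdx6b and Hoxd10 listed at 0.

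**Figure D2:**
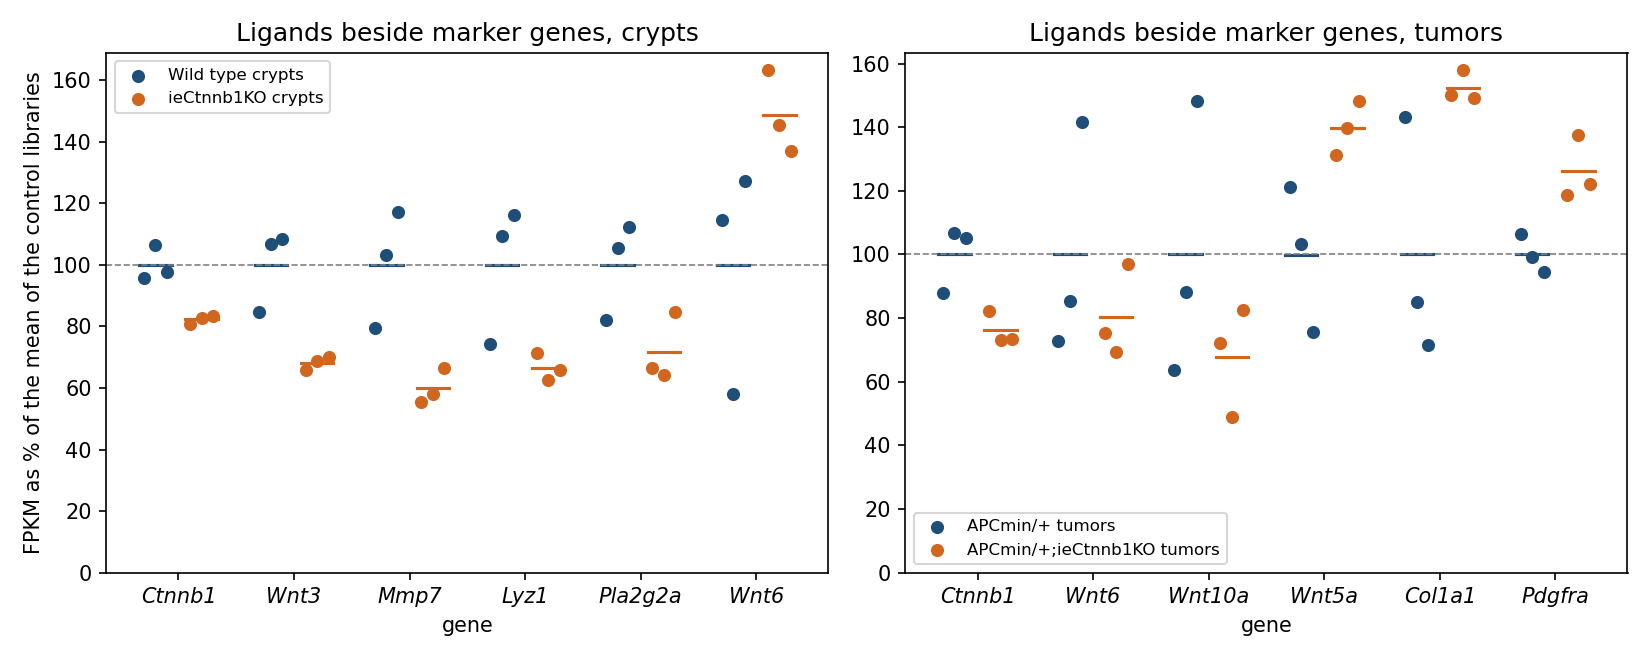
FPKM of ligands and marker genes in every library as a percentage of the mean of the control libraries of the same tissue, with a bar for each group mean. In crypts (left) Ctnnb1, Wnt3, Mmp7 and Lyz1 of the knockout lie below all Wild type libraries, the Paneth gene Pla2g2a overlaps and Wnt6 lies above them. In tumors (right) Wnt5a, Col1a1 and Pdgfra of the knockout lie above all controls, and Wnt6 and Wnt10a overlap. Of the 10 listed fibroblast genes only 3 had groups that did not overlap, and both drawn here are among them.

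In tumors, Wnt6 and Wnt10a dominated the ligand transcripts. Together they took 78.4%, 84.4% and 91.2% of the summed FPKM of the 10 ligands in APCmin/+ tumors and 78.2%, 72.5% and 81.5% in the knockout tumors. The order in APCmin/+ tumors was Wnt6 (60.8 ± 22.2 FPKM), Wnt10a (41.7 ± 18.2), Wnt5a (9.79 ± 2.25), Wnt5b (2.22 ± 0.598), Wnt2b (2.18 ± 0.310), Wnt3 (1.23 ± 0.342), Wnt11 (0.855), Wnt4 (0.369), Wnt2 (0.0996) and Wnt9b (0.0365). Thus 6 ligands were called expressed, 2 low and 2 near 0. Of the 9 pairs of neighbours 5 were separated, namely Wnt10a above Wnt5a, Wnt5a above Wnt5b, Wnt2b above Wnt3, Wnt11 above Wnt4 and Wnt4 above Wnt2. Wnt6 and Wnt10a were not separated over the libraries, although Wnt6 was the higher gene within each of the 3.

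The order of the means was the same in APCmin/+;ieCtnnb1KO tumors. It ran from Wnt6 (49.0 ± 8.80 FPKM), Wnt10a (28.3 ± 7.15) and Wnt5a (13.7 ± 0.841) to Wnt2 (0.166) and Wnt9b (0.0554), with 4 of 9 pairs of neighbours separated. The 4 were Wnt6 above Wnt10a, Wnt10a above Wnt5a, Wnt5a above Wnt5b and Wnt4 above Wnt2. There 7 ligands were called expressed, Wnt11 being the one added, at a mean of 1.19 FPKM with libraries between 0.558 and 1.69. Wnt2 had 11 fragments over the 3 APCmin/+ libraries and 18 over the 3 knockout libraries, and Wnt9b 8 and 12, so no fold is given for either.

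**Figure D3:**
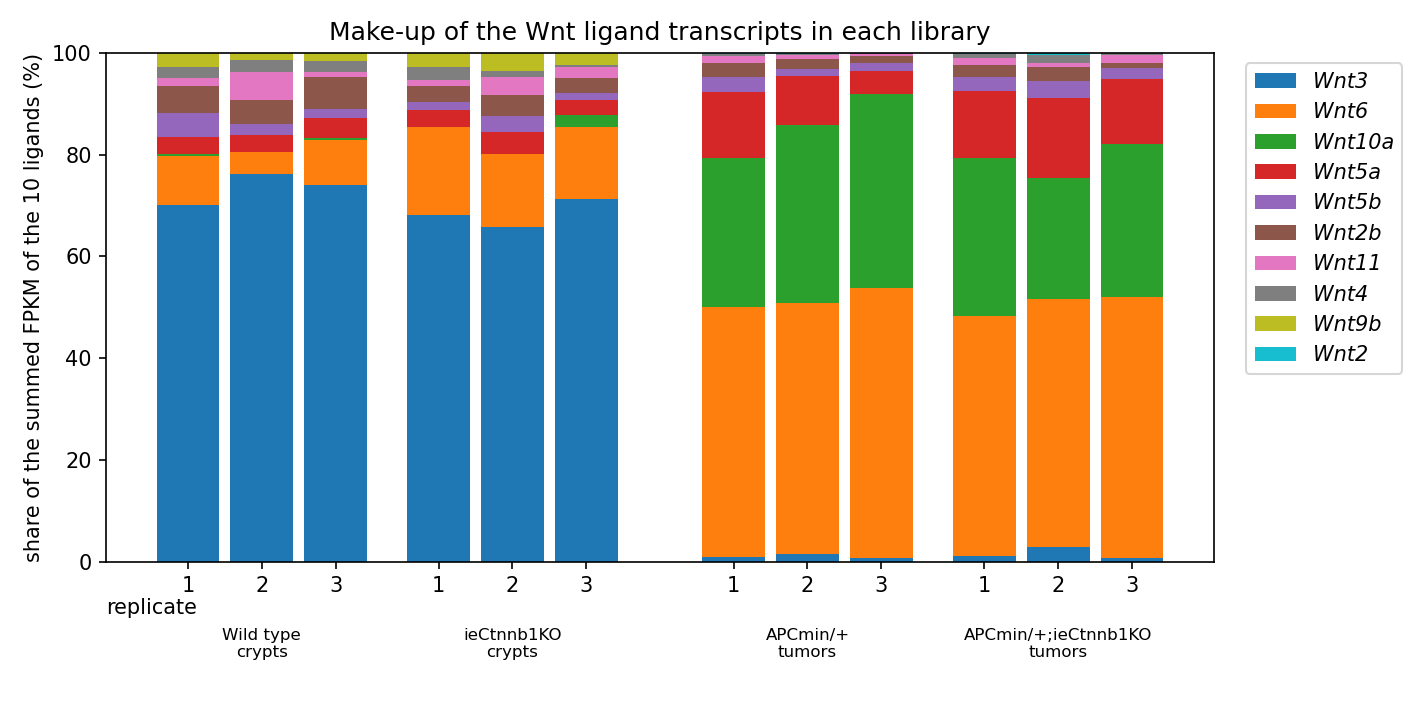
Share of each ligand in the summed FPKM of the 10 ligands, as a stacked bar for each of the 12 libraries, in percent. Wnt3 fills 65.9% to 76.3% of every crypt bar, while Wnt6 and Wnt10a together fill 72.5% to 91.2% of every tumor bar.

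The summed ligand level followed Wnt6 and Wnt10a. It was 90.5, 105 and 162 FPKM in APCmin/+ tumors and 96.9, 86.4 and 115 in the knockout tumors, and 7.31, 8.45 and 8.85 against 5.83, 6.30 and 5.94 in crypts, where Wnt3 set it. Within tumors the ratio of the neighbours Wnt6 and Wnt10a was taken for each library, with no other gene pair compared. The Wnt6 level was 1.67, 1.42 and 1.39 times the Wnt10a level in APCmin/+ tumors and 1.52, 2.07 and 1.71 times in the knockout. In crypts Wnt6 was detected in all 6 libraries and Wnt10a in 3 of them.

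Neither of these leading ligands differed between tumor genotypes beyond the spread of the libraries. Wnt6 was at 44.4, 52.0 and 86.1 FPKM in APCmin/+ tumors and at 45.7, 42.2 and 58.9 in the knockout, a log2 difference of -0.27 (SE 0.26, 95% interval -0.88 to 0.35, limma adjusted p = 0.642). The highest library was APCmin/+ replicate 3, and without it the log2 difference was 0.01. Wnt10a, an activator of canonical signaling in skin appendages and teeth, was at 26.5, 36.7 and 61.8 FPKM and at 30.1, 20.4 and 34.4 (log2 difference -0.50, SE 0.33, 95% interval -1.28 to 0.29, limma adjusted p = 0.496). Without APCmin/+ replicate 3 its log2 difference was -0.17, and without knockout replicate 2, its lowest library, -0.28. The exact permutation p was 0.6 for Wnt6 and 0.4 for Wnt10a. The antisense gene Gm29539 at the Wnt6 locus was at 5.46, 4.24 and 6.53 FPKM in APCmin/+ tumors and at 2.21, 3.37 and 1.52 in the knockout, without overlap (log2 difference -1.07, SE 0.26, limma adjusted p = 0.269).

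Wnt5a was higher in the knockout tumors, without overlap of the groups. Its level was 11.9, 10.1 and 7.39 FPKM in APCmin/+ and 12.8, 13.7 and 14.5 in the knockout, from 865 to 1772 fragments. All 3 knockout libraries lay above the highest control, APCmin/+ replicate 1, by a margin smaller than the range of the controls. The knockout mean was 1.40 times the control mean, a log2 difference of 0.49 (SE 0.17, 95% interval 0.08 to 0.89), which did not pass limma after adjustment over 16743 genes (adjusted p = 0.311, exact permutation p = 0.1). Without the 2 libraries that express Xist the difference was 0.26 (limma adjusted p = 0.695), and without APCmin/+ replicate 3 alone it was 0.31.

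The other 5 tested ligands overlapped between genotypes. Wnt5b was at 1.53 to 2.61 FPKM in APCmin/+ and 2.51 to 2.80 in knockout tumors (log2 difference 0.23, limma adjusted p = 0.584), a difference of 0.0334 without APCmin/+ replicate 2. Wnt2b was at 1.95 to 2.53 against 1.19 to 2.51 FPKM (-0.11, limma adjusted p = 0.860), which turned to 0.17 without knockout replicate 3, and Wnt11 at 0.582 to 1.10 against 0.558 to 1.69 (0.27, limma adjusted p = 0.699). Without knockout replicate 3 the Wnt11 difference was 0.0532. Wnt3 and Wnt4 had their highest value in knockout replicate 2. There Wnt3 was at 2.45 FPKM against 1.07 and 0.750 in the other knockout tumors and 0.863 to 1.54 in the controls (log2 difference 0.07, limma adjusted p = 0.942). Wnt4 was at 1.41 FPKM there against 0.652 and 0.382, and 0.231 to 0.462 in the controls (0.53, limma adjusted p = 0.467). Wnt4 reached the filter only with that library, and without it the Wnt4 difference was 0.22, untested. The sign of the Wnt3 difference turned to -0.29 without that library.

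Of the 8 ligands tested in tumors, 3 had a lower and 5 a higher mean log2 level in the knockout, with a median log2 difference of 0.15 against 0.01 over all genes tested. Wnt4 is 1 of the 5, and 2 to 4 of the 8 were lower when a library was left out. The median rests on knockout replicate 2, since it was 0.01 without that library. The same 8 had at least 5 fragments on average, and 1 of them, Wnt5a, had groups that did not overlap, against 21.4% of 18943 genes. A limma p under 0.05 before adjustment was reached by that 1 ligand of 8, against 2421 of 16743 genes (14.5%). Both shares were no higher than the background, and after adjustment 0 of 16743 genes (0%) passed, as with voom on the recovered fragments.

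**Figure D4:**
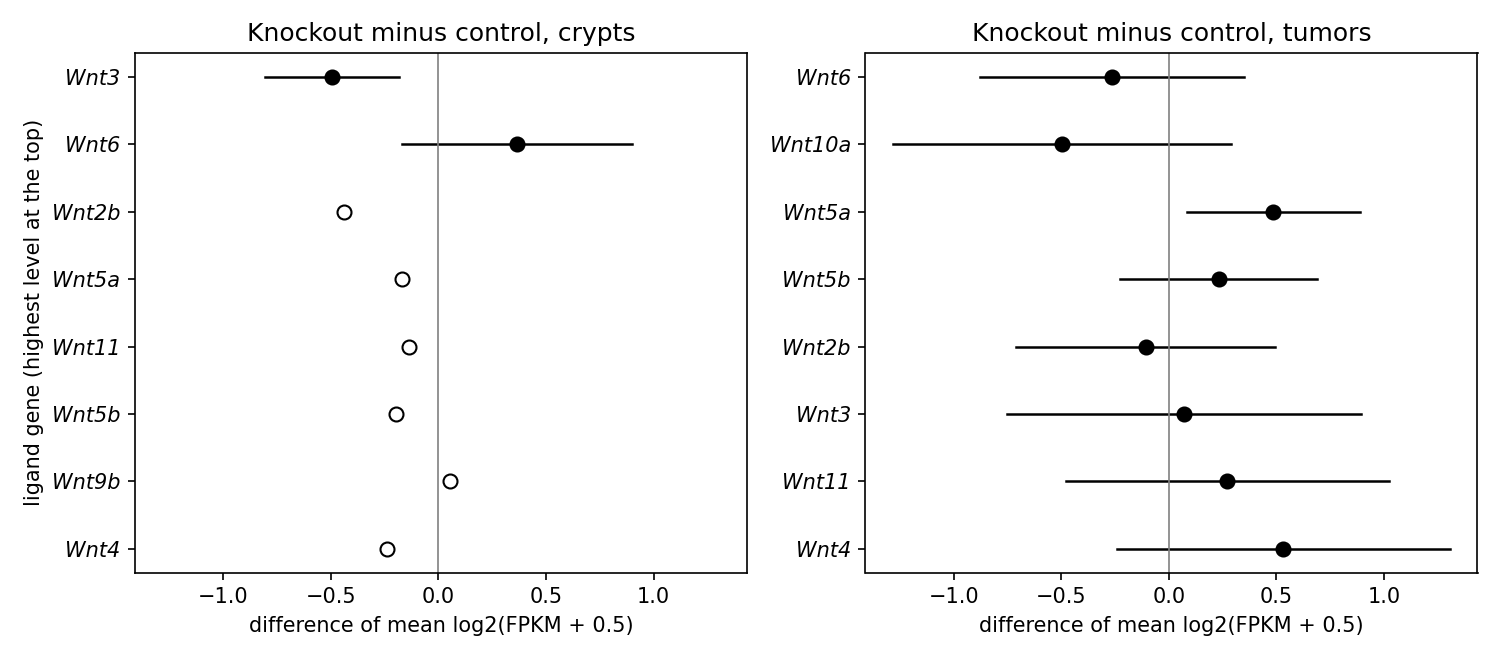
Knockout minus control difference of the mean log2(FPKM + 0.5) for the ligands with at least 5 fragments on average, crypts on the left and tumors on the right, ordered by mean level. Filled points were tested with limma and carry their 95% interval; open points lay below the filter of 0.5 FPKM and have none. Wnt3 in crypts (-0.49) and Wnt5a in tumors (0.49) have intervals that leave out 0 before adjustment over all genes.

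Fibroblast markers had higher means in the knockout tumors, but their summed level overlapped between genotypes. It was 382, 246 and 239 FPKM in APCmin/+ and 381, 495 and 408 in the knockout. All 10 fibroblast genes had a higher mean log2 level there, with a median log2 difference of 0.43. Of all 16743 genes tested in tumors, 8157 were lower in the knockout. Of the 10, 3 had groups that did not overlap, against 21.4% of all genes, and none passed the limma threshold. A limma p under 0.05 before adjustment was reached by 5 of the 10, all higher, against 14.5% of 16743 genes. Col1a1, the most abundant of them, was at 137, 81.6 and 68.5 FPKM against 144, 151 and 143. Pdgfra, a receptor that marks crypt-supporting fibroblasts, is named for the smallest p of the list and was at 15.4 to 17.4 FPKM against 19.4 to 22.5. The part of fibroblasts in the Wnt5a difference was not tested.

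Epithelial markers had higher means in 8 of 8 cases, with groups that did not overlap for all 8, against 21.4% of 18943 genes, and summed to 4425, 4446 and 3885 FPKM against 5220, 5070 and 5403. Krt8 led that list and Krt20, a keratin of differentiated cells, was at 92.9, 47.8 and 49.2 against 112, 125 and 115 FPKM. Endothelial genes were higher in 5 of 6 cases (sums of 38.8, 37.1 and 31.8 against 44.2, 42.6 and 44.6 FPKM, led by Cdh5). Smooth muscle genes divided into 4 lower and 4 higher, led by Acta2 at 102, 88.0 and 78.2 against 112, 107 and 115 FPKM. Their sums were 139 to 178 FPKM in APCmin/+ and 164 to 189 in the knockout tumors. Of 7 tested immune genes 3 were lower and 4 higher, with sums of 496, 434 and 581 against 450, 563 and 351 FPKM. Of 7 tested colon genes 6 were higher (sums of 304, 301 and 302 against 467, 727 and 563 FPKM), Muc2 of goblet cells at 151, 123 and 114 against 259, 420 and 295 FPKM. None of these genes passed the limma threshold.

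Paneth genes were present in the colon tumors, and their summed level was highest in the library with the highest Wnt3. This was not particular to Paneth genes, since that library, knockout replicate 2, also had the highest fibroblast and colon sums (495 and 727 FPKM). The Paneth list summed to 2158, 2195 and 2367 FPKM in APCmin/+ tumors and to 3061, 4986 and 1783 in the knockout, and 9 of 10 genes had a higher mean log2 level in the knockout. That count leans on knockout replicate 2, where Ang4, Defa17, Defa22 and Defa30 were at 438, 49.5, 230.5 and 348 FPKM, above every control. In knockout replicate 3 these genes were at 52.2, 9.21, 54.5 and 58.8 FPKM, below every control. Lyz1, the most abundant, was at 702, 971 and 1095 against 1456, 1665 and 677 FPKM. In knockout replicate 2 the defensin Defa24 reached 1062 FPKM against 225 to 355 in the other 5 tumors. Mptx2, which has the smallest p of the list and the 1 lower mean, was at 99.9, 51.2 and 18.4 FPKM against 9.31, 5.26 and 27.5, so its lowest value was in that same library. Among the small-intestinal markers beside Lyz1 and Defa24, Gata4 and Sis were under 0.1 FPKM in every tumor. Lct reached at most 0.115 FPKM and Fabp1 0.226, Fabp6 was at 0.253 to 1.21 and Mptx1 at 0.321 to 7.31. The list summed to 976, 1201 and 1330 FPKM in APCmin/+ and 1819, 2729 and 904 in the knockout, nearly all of it Lyz1 and Defa24. Of 3 tested stomach genes all 3 had a lower mean log2 level in the knockout, led by Gkn3 at 5.70 to 22.2 FPKM, and the list summed to 25.2 to 30.5 FPKM in APCmin/+ and 11.4 to 20.4 in the knockout tumors.

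The knockout change of a ligand was compared between tissues in 1 model over all 12 libraries, as the tumor change minus the crypt change. Of the 10 ligands 7 reached a mean of 0.5 FPKM over the 12 libraries, but only Wnt3 and Wnt6 passed the filter in both tissues. For Wnt6, higher in knockout crypts and lower on average in knockout tumors, it was -0.63 (95% interval -1.36 to 0.11, limma adjusted p = 0.611), and -0.35 without APCmin/+ replicate 3. For Wnt3 it was 0.56 (95% interval -0.28 to 1.41, limma adjusted p = 0.689), and 0.21 without knockout tumor replicate 2. The other 5, Wnt2b, Wnt5a, Wnt5b, Wnt10a and Wnt11, were under the filter in crypts, where the added 0.5 exceeds their mean level, so their values are not read as a comparison of tissues. A limma p under 0.05 before adjustment was reached by neither Wnt3 nor Wnt6, by 1 of the other 5 (Wnt5a, limma adjusted p = 0.492) and by 1455 of 16252 genes (8.95%). After adjustment 0 genes (0%) passed. The ligands were therefore not shown to respond differently in crypts and tumors.

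The 9 Wnt genes outside the named 10 were all near 0 in crypts. There 5 of the 9, namely Wnt1, Wnt3a, Wnt7a, Wnt8a and Wnt8b, were listed at 0 in all libraries and none reached the filter. In tumors 4 of the 9 were near 0 (Wnt1, Wnt3a, Wnt8a and Wnt8b), Wnt9a and Wnt10b were low, and the other 3 were tested. Wnt7b was at 1.06, 1.53 and 2.06 FPKM in APCmin/+ and 1.21, 0.878 and 2.55 in the knockout, and Wnt7a at 1.23, 1.17 and 2.05 against 1.61, 0.373 and 2.12. Wnt16 was at 1.08, 2.64 and 1.09 FPKM against 0.841, 0.829 and 0.824, with groups that did not overlap (log2 difference -0.58, SE 0.29, limma adjusted p = 0.402). The size of the Wnt16 difference leans on APCmin/+ replicate 2, with 190 fragments against 76 and 71 in the other controls. Wnt9a, under the filter, was separated the other way, at 0.297, 0.273 and 0.261 FPKM against 0.448, 0.637 and 0.443, or 44 fragments against 81.

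Genes for ligand release were expressed in both tissues. Wls was at 4.07 to 6.03 FPKM in crypts and 17.2 to 24.0 in tumors, and its genotypes overlapped. Porcn was at 0.711 to 1.19 FPKM in crypts, also with overlap. In tumors Porcn was at 2.78, 3.15 and 2.88 FPKM in APCmin/+ and at 2.28, 2.16 and 1.86 in the knockout, without overlap (log2 difference -0.40, SE 0.13, limma adjusted p = 0.298).

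Among the receptors, 8 of 10 Frizzled genes were tested in crypts (6 lower, 2 higher in the knockout) and all 10 in tumors (4 lower, 6 higher). Of all genes tested, 6698 of 14176 were lower in crypts and 8157 of 16743 in tumors. Fzd5 was the most abundant in crypts, at 17.3 to 27.1 FPKM, and Fzd9 had the smallest p there, at 3.47, 5.28 and 3.34 against 2.25, 2.29 and 3.45 FPKM. In tumors Fzd6 was at 10.1, 10.4 and 9.98 FPKM in APCmin/+ and 7.87, 5.94 and 5.27 in the knockout, and Fzd10 at 9.48, 10.9 and 15.0 against 7.34, 5.10 and 5.94. Both were without overlap, and so were 2 in the other direction, Fzd5 at 5.15, 4.62 and 3.94 against 5.81, 6.37 and 6.88 FPKM and Fzd8 with means of 1.94 and 2.96. These are 4 of 10 Frizzled genes, against 21.4% of 18943 genes. Of the co-receptors, 5 of 5 tested had a lower mean in knockout crypts, against 6698 of 14176 genes, with a median log2 difference of -0.096. Groups of 2 of the 5 did not overlap, against 12.1% of 16416 genes. Ror2, a receptor for Wnt5a, had the smallest p, at 2.18, 2.13 and 1.79 against 1.17, 0.999 and 1.14 FPKM (log2 difference -0.66, SE 0.15, limma adjusted p = 0.728). Ryk, the most abundant, was at 13.1, 14.9 and 13.1 against 13.0, 13.7 and 13.2 FPKM. In tumors 3 of 6 were lower and 3 higher, and Ror2 was at 5.48 to 8.48 FPKM with overlap.

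Secreted inhibitors were scarce in crypts, where 1 of 13, Sfrp5, was tested, at 3.61 to 5.37 FPKM. In tumors 7 of 13 were tested, 5 lower and 2 higher, with Wif1, which binds Wnt ligands, at 198 to 258 FPKM and Notum, a deacylase that removes the lipid of Wnt ligands, at 93.2 to 137. Dkk3 was at 54.9, 58.1 and 72.7 FPKM in APCmin/+ and 45.8, 44.9 and 49.7 in knockout tumors, without overlap. Of all genes tested, 6698 of 14176 were lower in knockout crypts and 8157 of 16743 in knockout tumors. Of the genes of the R-spondin axis, 5 of 5 tested were lower in knockout crypts and 4 of 6 in knockout tumors. In crypts Rspo1 is 1 of the 5 and passed the filter only through its Wild type level. It was at 0.933, 0.540 and 0.988 against 0.285, 0.801 and 0.294 FPKM. Rnf43, a ligase that removes Frizzled from the cell surface, was at 10.4, 10.3 and 11.5 against 10.1, 7.56 and 8.03 FPKM in crypts, and at 70.8, 74.0 and 74.5 against 59.1, 55.1 and 59.5 in tumors. Of the 16 targets, 9 of 14 tested were lower in knockout crypts and 12 of 16 in knockout tumors. The lists share genes, with Rnf43 and Lgr5 in both the R-spondin axis and the targets, and Notum in both the inhibitors and the targets. Their counts are therefore not separate results. Axin2 was at 20.6, 19.8 and 23.2 against 17.7, 18.3 and 13.6 FPKM in crypts and at 96.5, 104 and 106 against 77.8, 80.8 and 85.4 in tumors. None of the release, receptor, inhibitor, R-spondin axis or target genes passed the limma threshold in either tissue.

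The genes whose log2 levels were most like those of the leading ligand were named as a description over 6 libraries, with no test. For Wnt3 in crypts, among 12287 other genes with a mean of at least 1 FPKM, they included Gm42979 (Pearson r = 0.998) and Usp53 (0.991). Gm42979 averaged 1.68 FPKM in Wild type and 0.729 in knockout crypts. Mmp7, looked at after its values were seen, had r = 0.986 with Wnt3. For Wnt6 in tumors, among 14550 genes, they were Psmc6 (r = 0.992), Slc35f2 (0.989) and Tubb4a (0.987). The 6 libraries of a tissue fall into 2 genotypes, which both genes of a pair share.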

How the data were processed

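RNA of 6 crypt and 6 tumor libraries had been sequenced, 3 per genotype. Per the study's methods, the authors aligned cleaned reads with Hisat2 and counted them per gene with featureCounts. The values used here are the deposited FPKM, in 1 table per tissue. The submitters' processing notes list mm10, cutadapt, HISAT2, Cufflinks 2.2.1 and DESeq2. The annotation and the strand setting are not given in the sources used here. FPKM times gene length gave whole fragments (within 0.05) for 100% of values in every library, so fragments could be recovered. Counts were not used for the main test. FPKM plus 0.5 were turned to log2 and fitted by limma 3.58.1 (R 4.3.3), with a trend of the variance, over genes with a mean of at least 0.5 FPKM, with Benjamini-Hochberg adjustment over all genes tested. Crypts and tumors were fitted separately, and the difference of the knockout change over all 12 libraries. On simulated data with 200 altered genes the limma step called 144 of them and 4 others in the crypt design, and 155 of them and 8 others in the tumor design. Those 200 genes were given log2 changes of at least 1 and had mean log2 levels above 1. The ligand differences in the main test were smaller, so these shares do not give the power to call them. Differences for genes under the filter needed a mean of 5 fragments. Ligand members and lists (other Wnt genes, release, Frizzled, co-receptors, inhibitors, R-spondin axis, targets, and markers of Paneth, fibroblast, smooth muscle, endothelial, immune, epithelial, small-intestinal, colon, stomach and sex identity) were chosen with earlier results of these data known. Named genes were all 10 ligands, Ctnnb1, other Wnt genes reaching 1 FPKM, of each pathway list up to 3 genes with the smallest p, of each marker list its most abundant genes, and genes among the 3 most like the leading ligand of each table; others, such as Gm29539, were named after their values were seen. Alternatives covered the pseudocount, filter, scaling, voom on recovered fragments, a replicate block, inferred sex (tumors) and leaving out libraries. The study's legends give 3 mice per group; the labels do not tie libraries to animals, and p-values measure the spread between these samples.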

Additional observations from a re-analysis of the deposited data

How the results depend on the processing

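With limma, the count of genes called was 0 in tumors under all 17 alternatives, beside 1218 to 3020 genes with a p under 0.05 before adjustment. In crypts it was 0 under 15 of 16 alternatives; leaving out single libraries gave 0 to 3, and the 3 genes called without Wild type replicate 3 were Gkn1, Gkn2 and Pgc, stomach genes of the other Wild type libraries. The tumor-minus-crypt difference had 0 called genes in the main test, 1 with a pseudocount of 0.1 (Trbj1-6), and 0 to 3 with single libraries left out (Gkn1, Gkn2 and Ctse without Wild type crypt replicate 3). With the replicate block, that difference had 1 called gene (Trbj1-3), crypts 0 and tumors 0; no ligand passed under it. Libraries with the same number correlated by -0.122 to 0.0541 in their deviations from the group means, so the numbers were not taken to pair them. Unadjusted counts ranged from 458 (without knockout crypt replicate 1) to 2226 (without both Wild type crypts with stomach genes) in crypts. Rescaling each library to the same total moved the median log2 difference of all genes from 0.01 to 0.14 in crypts, where Wnt3 stood at -0.50 and Wnt6 at 0.30 relative to it, and for the tumor-minus-crypt difference to -0.22. It widened the split of genes with p under 0.05 from 494 higher and 335 lower to 734 and 159 in crypts, where scaling without the 50 highest genes reversed it to 285 and 508. In tumors both scalings reversed it, from 1417 and 1004 to 731 and 1785, and to 730 and 1953. No ligand passed the threshold under any alternative run. In crypts the signs of Wnt3 and Wnt6 held in all 31 values, with Wnt3 between -0.61 and -0.36 (limma adjusted p of at least 0.243) and Wnt6 between 0.1388 and 0.6330. Of the 6 crypt ligands under the filter with at least 5 fragments on average, only Wnt11 turned sign with a library left out, to 0.08 without Wild type replicate 2. In tumors 8 of 134 values turned sign: Wnt2b (lowest -0.2501) to 0.1655 without knockout replicate 3 and 0.1346 without both libraries with Xist; Wnt3 (highest 0.3698, and 0.3316 without knockout replicate 3) to -0.0021 and -0.0049 with both rescalings, -0.0936 without control replicate 1 and -0.2881 without knockout replicate 2; Wnt6 (lowest -0.4616, without control replicate 1) to 0.0128 without control replicate 3; and Wnt11 to -0.10 without both libraries with Xist. Wnt5a kept its sign in tumors (0.26 to 0.63), as did Wnt10a (-0.77 to -0.17), Wnt5b (0.0334 without control replicate 2 to 0.3403) and Wnt4 (0.3717 with a pseudocount of 1, 0.8408 with 0.1 and 1.0002 with voom), which was at 0.2247 and under the filter, so untested, without knockout replicate 2; Wnt11 was at 0.0532 without knockout replicate 3 and 0.5781 without knockout replicate 2. The tumor-minus-crypt difference of Wnt3 ranged from 0.2060 (without knockout tumor replicate 2) to 0.8257, and that of Wnt6 from -0.8257 (pseudocount 0.1) to -0.3508 (without control tumor replicate 3). A pseudocount of 0.1 moved the difference of Wnt2b from 0.33 to 0.73 and of Wnt5b from 0.43 to 0.77, ligands under the filter in crypts. Ordering by the median moved 3 ligands in Wild type crypts and 2 in knockout tumors. No sex covariate could be fitted in crypts, which had 1 sex pattern. Runs without both libraries with Xist, or without both Wild type crypts with stomach genes, were chosen after seeing the data; the latter leaves 1 Wild type library, assumed to vary like the knockout group. In crypts the 9 ligands other than Wnt3 rest on at most 44 fragments in any library.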
